A study of Rattus norvegicus with 6 samples.

Results

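The aminoacyl-tRNA synthetases described here are 36 genes of the rat cell line RBL-2H3, 20 encoding cytosolic enzymes and 16 encoding mitochondrial ones, whose symbols end in 2. They were taken from a list of names, not from measured values, and each was found once by its symbol among the 22601 genes of the deposited table. RNA-seq was made from 3 libraries of cells treated for 6 h with PIO at 10 µM (the series title speaks of a PPARγ agonist), and from 3 control libraries of cells not given it. All 6 came from wild-type RBL-2H3 cells, a rat basophilic leukemia line grown in MEM with fetal bovine serum. The labels name no vehicle and give no culture time for the control cells. Nor do they say whether the 3 libraries of a group came from separate cultures, so a p-value covers only how these libraries scatter, and that scatter may be technical.

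Aminoacyl-tRNA synthetases join each amino acid to its tRNA, the step that fixes the meaning of the genetic code before translation. Mitochondria charge their own tRNAs, mostly with enzymes from separate nuclear genes, while Gars and Kars are known in humans to supply both compartments from one gene. Many cytosolic synthetase genes are known targets of ATF4, the transcription factor of the integrated stress response, which cells switch on when amino acids run short or the endoplasmic reticulum is stressed.

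The totals that scaled the libraries were 14048202 to 14322720 reads in PIO libraries and 14105533 to 15084729 reads in control libraries, and 9824 to 9876 genes per library reached 1 FPKM (fragments per kilobase of gene, scaled to the reads of the library). Of 11 mast cell and basophil markers 9 averaged at least 1 FPKM, with summed levels of 4550 to 4690 FPKM in PIO libraries and 4520 to 4710 FPKM in control libraries, and Tpsab1, a tryptase, was at 0. Markers of neutrophils, B cells, fibroblasts and adipocytes all averaged under 1 FPKM, and 1 of 4 macrophage markers and 1 of 3 T and NK cell markers reached it. That last gene was Nkg7, a granule membrane protein of killer cells, at 329 to 370 FPKM in PIO libraries and 309 to 334 FPKM in control libraries, while Cd3d was at 0. Control replicate 3 stood apart from the other libraries in many cytosolic synthetases, so many comparisons are also given without it. In bulk RNA, fewer cells expressing a gene and less of its RNA per cell cannot be told apart.

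Cytosolic synthetase transcripts were far more abundant than mitochondrial ones in every library. The median level over the 20 cytosolic genes was 90.0, 92.8 and 92.2 FPKM in the 3 PIO libraries and 92.0, 90.4 and 94.5 FPKM in the 3 control libraries. The median over the 16 mitochondrial genes was 8.13, 7.77 and 8.19 FPKM in PIO libraries and 8.21, 7.85 and 7.91 FPKM in control libraries. The ratio of the medians was thus 11.4 ± 0.416 in PIO libraries and 11.5 ± 0.351 in control libraries (SD, n = 3 each). On the log2(FPKM + 0.5) scale, the cytosolic median minus the mitochondrial median was 3.43 ± 0.05 in PIO libraries and 3.45 ± 0.05 in control libraries, a difference between groups smaller than either SD. In every library 19 of the 20 cytosolic genes lay above every mitochondrial gene, the exception being Dars, the aspartate enzyme.

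**Figure D1:**
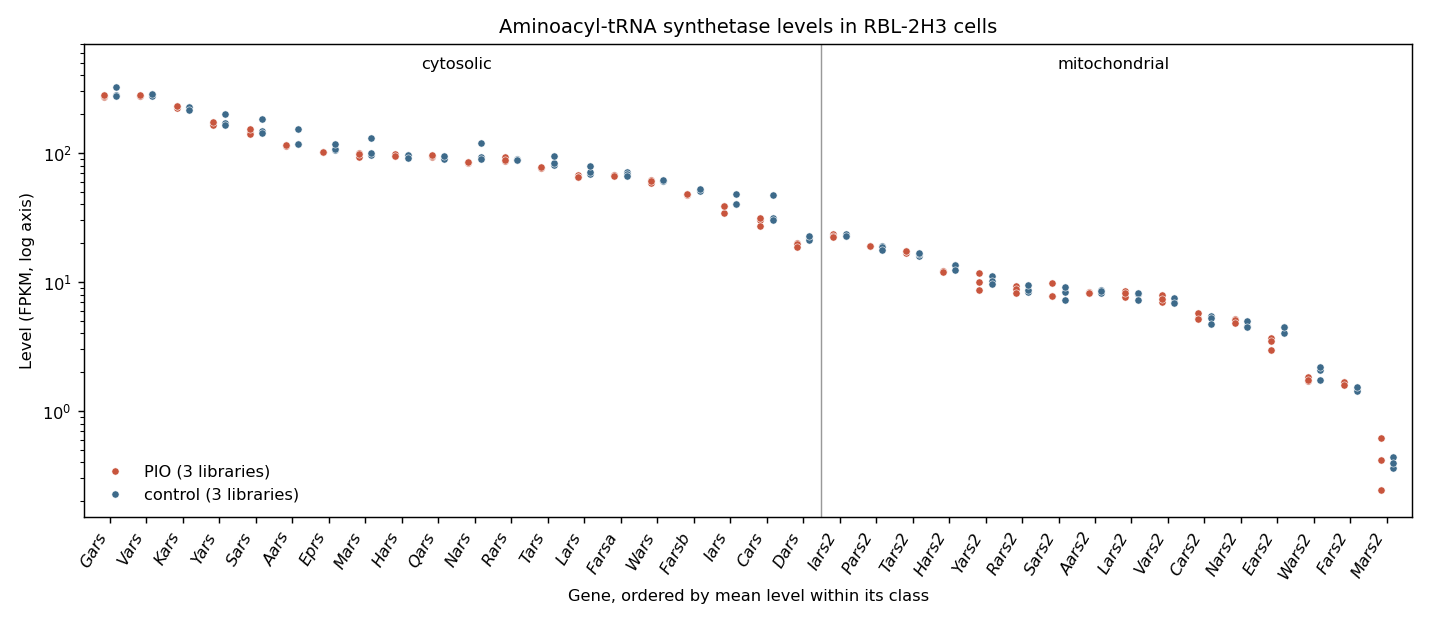
Level of each of the 36 synthetase genes in FPKM (log axis), ordered by mean level within its class, with 1 point per library (PIO in red, control in blue). All cytosolic genes but Dars lie above the highest mitochondrial gene, Iars2, and control replicate 3 is the high blue point of genes such as Cars, Nars, Mars and Aars.

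The most abundant member was Gars, the glycine enzyme, at 272, 276 and 283 FPKM in PIO libraries and 284, 278 and 326 FPKM in control libraries. Vars, the valine enzyme, had 277, 276 and 282 FPKM in PIO libraries and 288, 275 and 285 FPKM in control libraries, so the first and second place in the order were not separated beyond the spread. Kars, the lysine enzyme and a member of the multisynthetase complex, came after them at 222, 231 and 230 FPKM in PIO libraries and 228, 226 and 214 FPKM in control libraries, below both in every library. Yars, Sars and Aars, the tyrosine, serine and alanine enzymes, followed, with 164 to 200, 141 to 183 and 113 to 154 FPKM over the 6 libraries.

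At the low end of the cytosolic class were Iars, Cars and Dars, for isoleucine, cysteine and aspartate. Dars had 20.1, 19.6 and 18.7 FPKM in PIO libraries and 21.9, 21.3 and 22.8 FPKM in control libraries, below every other cytosolic gene.

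In animals a set of cytosolic synthetases, here Dars, Eprs, Iars, Kars, Lars, Mars, Qars and Rars, is held together in the multisynthetase complex by the scaffold proteins Aimp1, Aimp2 and Eef1e1. Their transcripts were not at 1 common level: over the 6 libraries Kars lay between 214 and 231 FPKM, Eprs, Mars, Qars and Rars between 86.8 and 131 FPKM, Lars and Iars between 34.5 and 79.2 FPKM, and Dars lowest. The scaffolds averaged 89.1 ± 3.91, 65.5 ± 2.29 and 74.7 ± 3.03 FPKM in PIO libraries for Aimp1, Aimp2 and Eef1e1, and 87.1 ± 4.09, 64.7 ± 3.38 and 73.2 ± 5.24 FPKM in control libraries (SD, n = 3 each). For each scaffold the group means differed by less than the SD of either group.

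The mitochondrial class was led by Iars2, the isoleucine enzyme, at 23.5, 22.6 and 22.2 FPKM in PIO libraries and 22.7, 23.5 and 22.9 FPKM in control libraries. Pars2, the proline enzyme, had 18.9, 19.1 and 19.0 FPKM in PIO libraries and 18.9, 18.8 and 17.7 FPKM in control libraries. Tars2, the threonine enzyme, had 16.8, 17.3 and 17.3 FPKM in PIO libraries and 16.0, 16.6 and 16.8 FPKM in control libraries. These first 3 places kept their order in every library.

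The lowest mitochondrial members were Wars2, Fars2 and Mars2, the tryptophan, phenylalanine and methionine enzymes. Wars2 had 1.72, 1.85 and 1.75 FPKM in PIO libraries and 2.08, 1.73 and 2.21 FPKM in control libraries. Mars2 had 0.415, 0.622 and 0.243 FPKM in PIO libraries and 0.364, 0.437 and 0.394 FPKM in control libraries. With 10 to 26 reads per library and a mean below 0.5 FPKM, Mars2 was the only member left out of the tests.

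The list held 13 pairs of genes whose symbols differ only by the ending 2, and the cytosolic gene was higher in every library in all 13. Eprs and the subunit genes Farsa and Farsb were not paired this way. The gap was narrowest for isoleucine, where the Iars to Iars2 ratio lay between 1.53 and 2.08 over the 6 libraries, and widest for methionine, where Mars to Mars2 lay between 149 and 400. The ratio of Vars to Vars2 was 35.2 to 41.5 and that of Wars to Wars2 was 28.0 to 35.0. Hars and Hars2, the histidine pair, are divergent neighbours whose promoter windows share 243 bases. Their ratio was 7.71, 8.04 and 7.97 in PIO libraries and 7.09, 7.11 and 7.34 in control libraries, higher in every PIO library than in any control library.

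Within the control group, 1 library was above the others in many cytosolic synthetases. On the log2(FPKM + 0.5) scale, control replicate 3 exceeded the mean of control replicates 1 and 2 by a median of 0.16 over the 20 cytosolic genes, with a range of -0.08 to 0.61. For 11 of the 20 the excess was above 0.1, and for none was it below -0.1, whereas 23.0% of all genes tested had an excess above 0.1. The 15 tested mitochondrial genes had a median excess of -0.01, with 3 above 0.1 and 4 below -0.1, where 20.9% of all genes tested were below -0.1. Control replicate 3 was the highest of the 6 libraries for 13 of 20 cytosolic and 2 of 15 mitochondrial genes, against 22.0% of all genes tested. Each library was also set against the mean of the other libraries of its own group, which does not compare the groups. The median of this difference over cytosolic genes was between -0.01 and 0.02 in the 3 PIO libraries. It was -0.08, -0.07 and 0.16 in control replicates 1, 2 and 3.

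**Figure D2:**
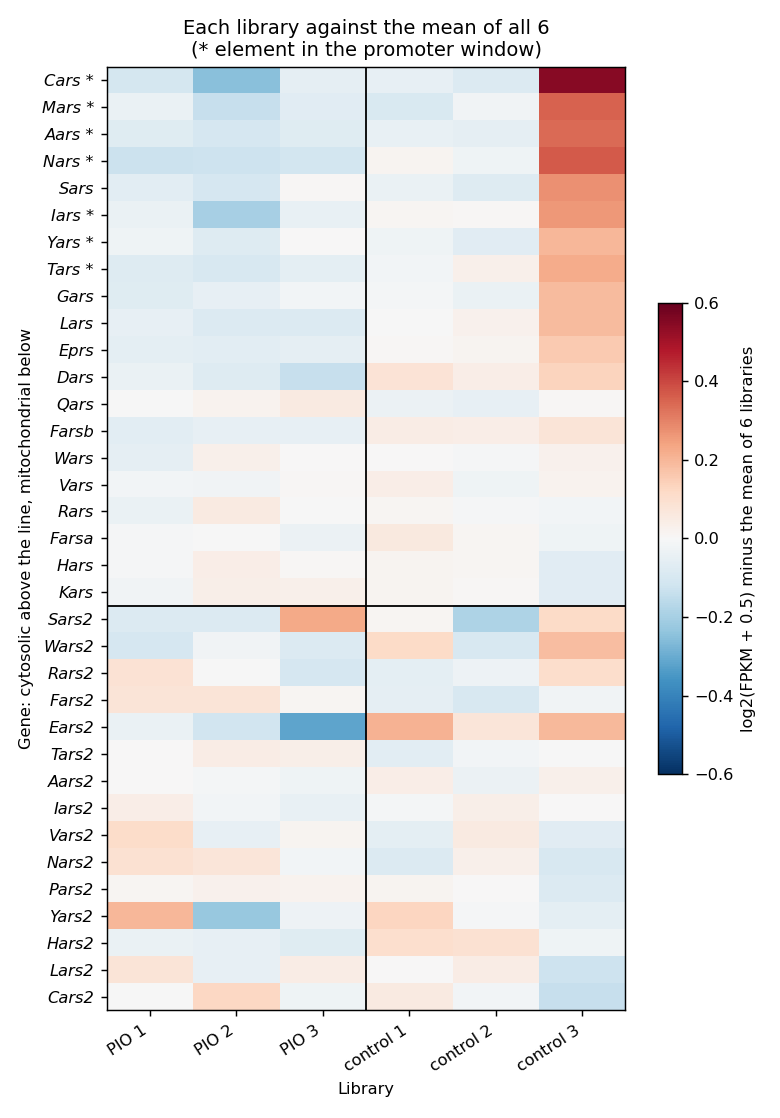
Deviation of each tested synthetase gene in each library from its mean over the 6 libraries, on the log2(FPKM + 0.5) scale (colour), with genes ordered by the excess of control replicate 3 within each class and an asterisk where the promoter window held TGATGCAA on either strand. The column of control replicate 3 is red for the upper cytosolic genes and mixed for the mitochondrial ones. Of the 8 highest cytosolic rows 7 carry the asterisk, and the next row, Gars, had no window to search.

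The excess was largest for Cars, at 0.61, with 47.4 FPKM in control replicate 3 and 31.3 and 30.5 FPKM in the other control libraries. It was 0.41 for Mars, the methionine enzyme of the complex, with 131 FPKM in control replicate 3 and 95.7 and 101 FPKM in the others. Aars, the alanine enzyme, had an excess of 0.39 and Nars, the asparagine enzyme, one of 0.37. At the other end Hars and Kars, for histidine and lysine, were lower in control replicate 3, at -0.08 each. Genes of the complex were found at both ends, with a median excess of 0.11 over 8 genes, and the 12 free cytosolic enzymes had a median of 0.22.

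Of the 8 cytosolic genes with the largest excess in control replicate 3, 7 held 1 short sequence near their start. The window from 250 bases before to 50 bases after the annotated start (RefSeq, rat assembly GRCr8) was searched on both strands for TGATGCAA, a core form of the composite element that ATF4 binds with C/EBP partners, whose reverse complement is TTGCATCA. A window was matched for 17 of the 20 cytosolic genes and 15 of the 16 mitochondrial ones, Dars, Rars, Gars and Mars2 having none. The sequence was found in 7 of 17 cytosolic windows (41.2%), in 0 of 15 mitochondrial windows and in 266 of all 33469 windows (0.795%). The cut at 8 genes falls at the last gene with a match, Tars at 0.217, and the next, Gars at 0.212, could not be searched. The stretches around the 7 matches are printed so that the matches and their flanks can be compared, each 5′ to 3′ on the strand of its gene with the element in capitals.

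Aars, chr19:55908350-55908397, plus strand: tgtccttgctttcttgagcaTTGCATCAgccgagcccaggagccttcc

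Cars, chr1:208225325-208225372, minus strand: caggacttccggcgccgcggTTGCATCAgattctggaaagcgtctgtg

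Iars, chr17:15193649-15193696, minus strand: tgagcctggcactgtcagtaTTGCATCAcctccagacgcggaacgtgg

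Mars, chr7:65023743-65023790, minus strand: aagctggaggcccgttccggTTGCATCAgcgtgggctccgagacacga

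Nars, chr18:60275769-60275816, minus strand: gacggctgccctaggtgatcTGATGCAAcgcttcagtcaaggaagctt

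Tars, chr2:62114802-62114849, minus strand: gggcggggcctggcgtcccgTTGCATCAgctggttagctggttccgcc

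Yars, chr5:146820181-146820212, plus strand: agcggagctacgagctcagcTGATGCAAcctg

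The element stands in both orientations and at different distances from the start, counted with negative numbers before it. In Nars, Mars, Iars and Tars it began at positions -14, -17, -24 and -27, in Aars at -112, and in Cars and Yars after the start, at 17 and 38. A match describes letters in a window and is not evidence of binding. Every PIO value lay below every control value for 4 of the 7 genes with the element and 3 of the 10 without it. The share over all genes tested was 8.09%. The 4 were Aars, Iars, Nars and Tars, while in Mars, with a match at -17, the groups overlapped. The whole window of Nars follows because its match was the closest of the 7 to the start.

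Nars, chr18:60275733-60276032, minus strand: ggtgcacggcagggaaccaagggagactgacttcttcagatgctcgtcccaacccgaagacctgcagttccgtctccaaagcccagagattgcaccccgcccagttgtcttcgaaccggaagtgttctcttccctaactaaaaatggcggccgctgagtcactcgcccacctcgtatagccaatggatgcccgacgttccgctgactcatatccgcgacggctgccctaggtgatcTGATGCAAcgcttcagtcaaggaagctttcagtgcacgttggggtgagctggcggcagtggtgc

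The 7 cytosolic genes with the element had an excess in control replicate 3 of 0.22 to 0.61 (log2), with a median of 0.37, and control replicate 3 was the highest library for all 7. The 10 cytosolic genes whose window did not hold it had an excess of -0.08 to 0.33, with a median of 0.03, and control replicate 3 was highest for 4 of them. The 3 without a window had a median of 0.07. Sars, the serine enzyme, was the highest gene with no match in its window, at 0.33.

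Transcripts of ATF4 targets that are not synthetases were also high in the same library. Of 24 ATF4 response genes 20 were tested, with a median excess in control replicate 3 of 0.51, and it was the highest library for 18 of the 20. Atf4 itself had 243, 240 and 255 FPKM in PIO libraries and 279, 277 and 617 FPKM in control libraries, an excess of 1.15. Asns, asparagine synthetase, had 143, 135 and 143 FPKM in PIO libraries and 147, 144 and 195 FPKM in control libraries, an excess of 0.42. The 12 amino acid transporters had a median excess of 0.50. By contrast the scaffolds of the multisynthetase complex had a median of -0.10, the mitochondrial translation factors -0.09 and the cytosolic elongation factors -0.01. The same promoter search matched 3 of 22 windows of ATF4 response genes (13.6%) and 2 of 11 of the transporters (18.2%). What set this library apart was not tested.

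**Figure D3:**
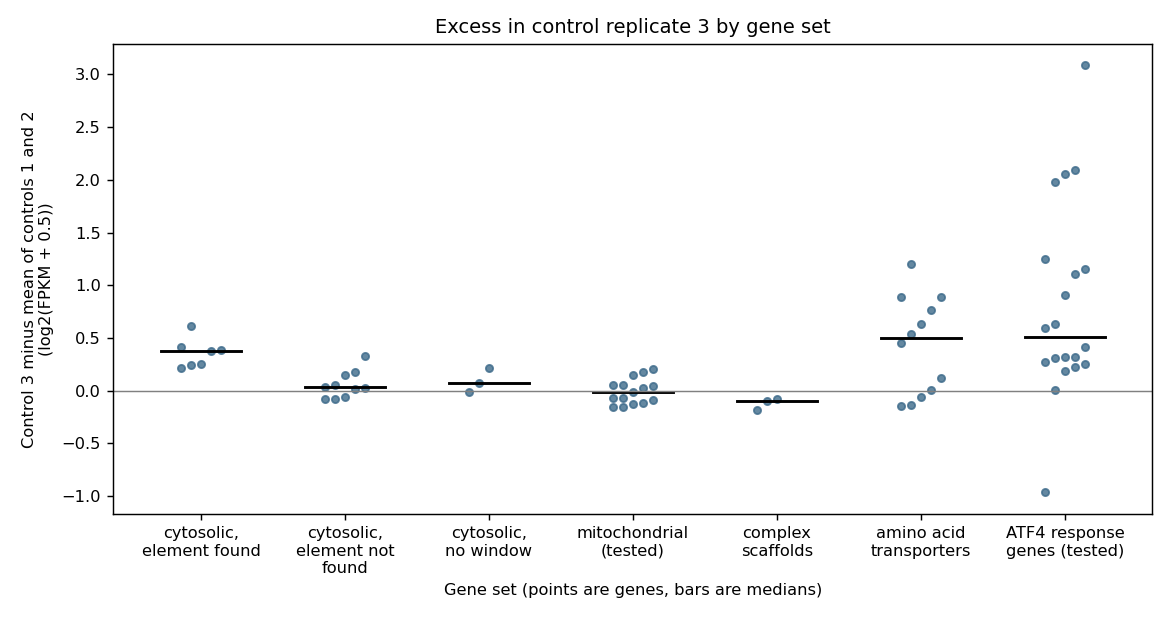
Excess of control replicate 3 over the mean of control replicates 1 and 2 on the log2(FPKM + 0.5) scale, with 1 point per gene and a bar at the median of each gene set. Cytosolic synthetases with the element (median 0.37), amino acid transporters (0.50) and ATF4 response genes (0.51) lie mostly above 0, and the mitochondrial synthetases (-0.01) and complex scaffolds (-0.10) lie near or below it.

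PIO against control asks how expression differed between cells given the agonist for 6 h and control cells, whose culture time is not stated. None of the 35 tested synthetases passed limma's test on all genes at a Benjamini-Hochberg adjusted p of 0.05, where 0.0384% of all genes tested (4 of 10410) were called, all 4 higher in PIO libraries. The lowest adjusted p of a member was 0.304, and limma-voom on recovered reads also called 0 members. At an unadjusted p under 0.05, 8 members were lower in PIO libraries, against 6.15% of all genes tested, and 0 were higher, against 6.36%. The 8 were Nars, Iars, Dars, Tars, Lars, Eprs and Farsb in the cytosolic class and Ears2 in the mitochondrial one. Without control replicate 3 there were 5, Nars, Dars, Farsb, Ears2 and Hars2, against 5.73% of all genes tested.

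The fitted log2 fold change was below 0 for 16 of 20 cytosolic genes, with a median of -0.11, and for 7 of 15 mitochondrial genes, with a median of 0.04. Over all genes tested the median was 0.01 and 46.0% were below 0. Without control replicate 3 the cytosolic median was -0.03, with 15 of 20 below 0, the mitochondrial median was 0.01, and 46.3% of all genes tested were below 0. Every PIO library lay below every control library for 10 of 35 members, against 8.09% of all genes tested, and above it for 2 members, against 10.5%. Without control replicate 3 the counts were 11, against 13.2%, and 3, against 16.9%, with Farsa added below and Qars added above.

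**Figure D4:**
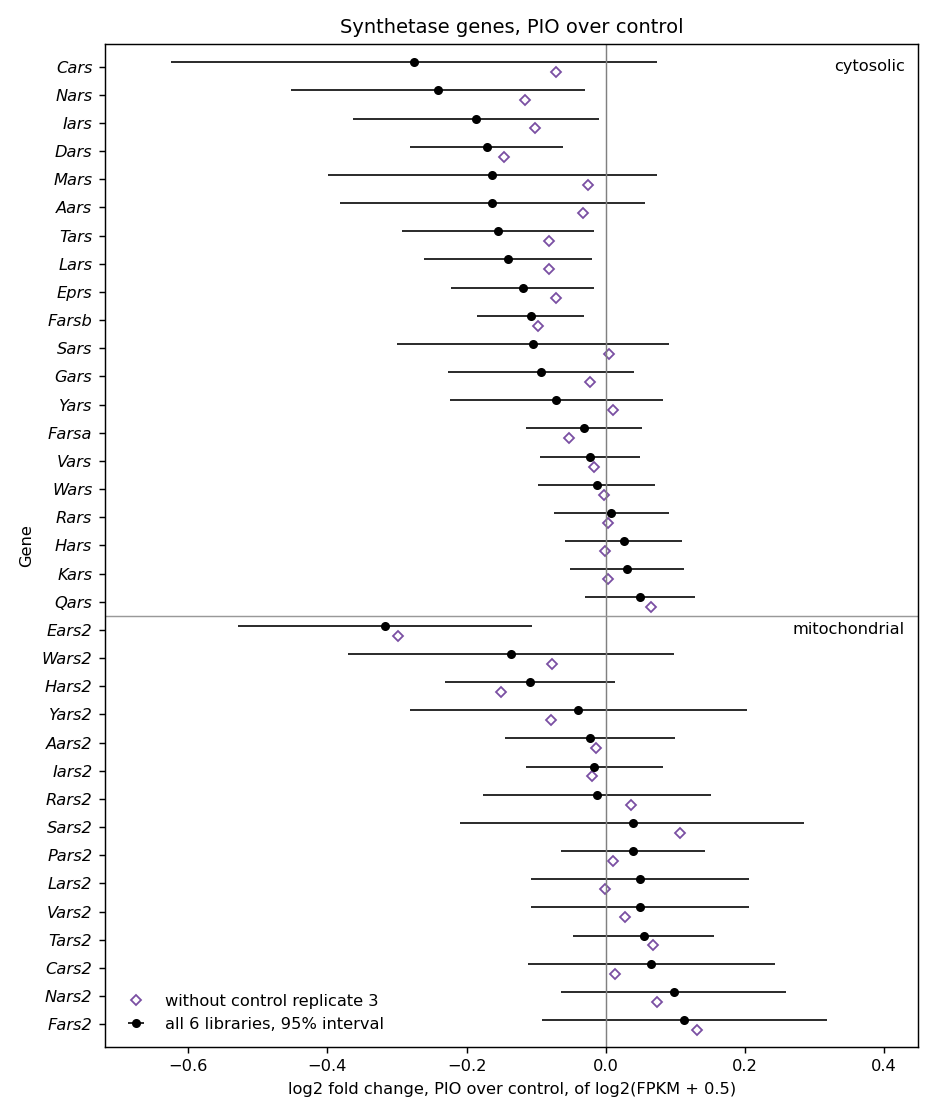
Log2 fold change of PIO over control for each tested synthetase on the log2(FPKM + 0.5) scale, with its 95% interval from limma over all 6 libraries (black) and the estimate without control replicate 3 (open diamonds). The cytosolic estimates run from -0.28 for Cars to 0.05 for Qars, and most of those furthest below 0 move toward 0 without that library, while Dars, Farsb and Ears2 move little.

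Among the enzymes of the multisynthetase complex, Iars, Dars, Lars and Eprs had PIO values below all control values. Iars, the isoleucine enzyme, had 38.7, 34.5 and 38.6 FPKM in PIO libraries and 40.0, 40.0 and 47.7 FPKM in control libraries. Its log2 fold change was -0.19 ± 0.08 (SE; limma, adjusted p = 0.386), and -0.10 without control replicate 3. Dars had a log2 fold change of -0.17 ± 0.05 (SE; limma, adjusted p = 0.304), and -0.15 without control replicate 3, with the library values given above and no overlap between groups. Its estimate moved less without that library than those of Iars, Lars and Eprs. Lars and Eprs, for leucine and for glutamate with proline, had log2 fold changes of -0.14 and -0.12 with all libraries, and -0.08 and -0.07 without that library. A second locus annotated as isoleucine-tRNA ligase-like, LOC103690033, had 4.42, 3.01 and 7.89 FPKM in PIO libraries and 4.35, 3.51 and 18.9 FPKM in control libraries, so Iars is uncertain where reads of the copies were split.

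In the other enzymes of the complex the groups overlapped. Mars had 99.2, 92.8 and 97.4 FPKM in PIO libraries and 95.7, 101 and 131 FPKM in control libraries. Its log2 fold change was -0.16 with all libraries and -0.03 without control replicate 3. For Kars the log2 fold change was 0.03, with a 95% interval of -0.05 to 0.11, and 0.004 without control replicate 3. Qars, the glutamine enzyme, had 93.2, 94.8 and 97.1 FPKM in PIO libraries and 91.1, 90.4 and 94.0 FPKM in control libraries, and a log2 fold change of 0.05. Rars, the arginine enzyme, had 86.8, 92.7 and 88.9 FPKM in PIO libraries and 89.9, 88.7 and 88.3 FPKM in control libraries. Its estimate was 0.01, and the control values lay within the range of the PIO values.

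Among the free cytosolic enzymes Cars had the lowest estimate. It had 30.0, 27.1 and 31.1 FPKM in PIO libraries and 31.3, 30.5 and 47.4 FPKM in control libraries, groups that overlapped. The log2 fold change was -0.28 ± 0.15 (SE; limma, adjusted p = 0.479), and -0.07 without control replicate 3. Nars had 84.0, 84.5 and 85.3 FPKM in PIO libraries and 93.0, 90.5 and 119 FPKM in control libraries, with no overlap. Its log2 fold change was -0.24 ± 0.09 (SE; limma, adjusted p = 0.371), and -0.12 without control replicate 3. The 3 PIO values were close together, and control replicates 1 and 2 lay above them as well as control replicate 3.

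Farsb and Farsa encode the subunits of the cytosolic phenylalanine enzyme, which works as a tetramer of both. Farsb had 47.5, 48.0 and 48.1 FPKM in PIO libraries and 51.4, 51.1 and 52.4 FPKM in control libraries, a log2 fold change of -0.11 ± 0.03 (SE; limma, adjusted p = 0.326) that was -0.10 without control replicate 3. Farsa had 67.7, 68.0 and 66.3 FPKM in PIO libraries and 71.0, 68.7 and 66.8 FPKM in control libraries, with overlap and a log2 fold change of -0.03, and -0.05 without control replicate 3. Whether the 2 subunits differ in their fold change was not tested. Aars and Tars, for alanine and threonine, also had PIO values below all control values, with log2 fold changes of -0.16 each that were -0.03 and -0.08 without control replicate 3.

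The cytosolic estimates nearest to 0 or above it belonged to Hars, Wars and Vars besides Kars, Qars and Rars. Hars had 94.5, 97.8 and 95.6 FPKM in PIO libraries and 96.3, 95.7 and 90.8 FPKM in control libraries, and a log2 fold change of 0.03 with a 95% interval of -0.06 to 0.11, and -0.001 without control replicate 3. Wars, the tryptophan enzyme, and Vars were at -0.01 and -0.02. Sars, Gars and Yars had estimates of -0.11, -0.09 and -0.07 with all libraries, and 0.01, -0.02 and 0.01 without control replicate 3.

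The lowest estimate of all members was that of Ears2, the mitochondrial glutamate enzyme. It had 3.70, 3.49 and 2.97 FPKM in PIO libraries and 4.50, 4.05 and 4.45 FPKM in control libraries, with no overlap. The log2 fold change was -0.32 ± 0.09 (SE; limma, adjusted p = 0.304), with a 95% interval of -0.53 to -0.11, and -0.30 without control replicate 3. Its near copy Ears2l1 had 1.57, 1.14 and 1.49 FPKM in PIO libraries and 1.63, 2.10 and 1.73 FPKM in control libraries, so both are uncertain where reads of the copies were split.

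Hars2 had 12.3, 12.2 and 12.0 FPKM in PIO libraries and 13.6, 13.5 and 12.4 FPKM in control libraries, with no overlap. Its log2 fold change was -0.11 (limma, adjusted p = 0.442), and -0.15 without control replicate 3. Wars2 and Yars2, the tyrosine enzyme, had estimates of -0.14 and -0.04 with overlapping groups, and -0.08 each without control replicate 3. Yars2 had 11.7, 8.62 and 9.94 FPKM in PIO libraries and 11.2, 10.1 and 9.73 FPKM in control libraries.

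The mitochondrial members with the highest estimates were Fars2, Nars2, Cars2 and Tars2. Fars2 had 1.69, 1.69 and 1.58 FPKM in PIO libraries and 1.49, 1.43 and 1.54 FPKM in control libraries, with no overlap and a log2 fold change of 0.11 ± 0.09 (SE; limma, adjusted p = 0.608). Nars2, the asparagine enzyme, had 5.18, 5.10 and 4.77 FPKM in PIO libraries and 4.53, 4.95 and 4.49 FPKM in control libraries, with overlap and an estimate of 0.10. Cars2, the cysteine enzyme, had 5.26, 5.80 and 5.18 FPKM in PIO libraries and 5.49, 5.22 and 4.75 FPKM in control libraries, and an estimate of 0.07 that was 0.01 without control replicate 3. Tars2 had PIO values above all control values by a small margin, with an estimate of 0.05. The other tested mitochondrial members, Aars2, Iars2, Lars2, Pars2, Rars2, Sars2 and Vars2, had estimates between -0.02 and 0.05 with overlapping groups, and for Iars2, Lars2, Rars2 and Sars2 the side of 0 depended on which library was left out.

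For asparagine, the Nars to Nars2 ratio was 16.2, 16.6 and 17.9 in PIO libraries and 20.5, 18.3 and 26.5 in control libraries. For threonine, the Tars to Tars2 ratio was 4.57, 4.39 and 4.53 in PIO libraries and 5.00, 5.00 and 5.65 in control libraries. For leucine, the Lars to Lars2 ratio was 7.94, 8.53 and 7.94 in PIO libraries and 8.64, 8.56 and 10.9 in control libraries. In these 3 pairs the PIO libraries lay below all control libraries, and control replicate 3, listed last, had the highest ratio. They were the only ones of the 13 pairs to do so. The Hars to Hars2 ratio went the other way, and in the remaining pairs the groups overlapped. No share for such ratios over other genes was computed.

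Genes that work beside the synthetases gave the following, with none past the threshold in any list when all libraries were used. The scaffolds Aimp1, Aimp2 and Eef1e1 had estimates of 0.03, 0.02 and 0.03 with all libraries, and 0.002, -0.01 and -0.03 without control replicate 3. Among the genes for mitochondrial tRNA amidation and other charging steps, an unadjusted p under 0.05 was found for Mtfmt, which formylates the initiator methionyl-tRNA of mitochondria. Mtfmt had 10.4, 9.69 and 9.34 FPKM in PIO libraries and 10.6, 11.5 and 11.2 FPKM in control libraries, with no overlap and a log2 fold change of -0.17 ± 0.06 (SE; limma, adjusted p = 0.358). Of 8 tested mitochondrial translation factors 1 had such a p, Mtif3, an initiation factor, at 0.16 ± 0.07 (SE; limma, adjusted p = 0.395). Without control replicate 3 its estimate was 0.09, and 0 of the 8 had an unadjusted p under 0.05 in limma. The 6 cytosolic elongation factors had a median of 0.04, with Eef1b2, a nucleotide exchange subunit, highest at 0.08.

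The lists that were high in control replicate 3 had the lowest medians. An excess in that library lowers these estimates by arithmetic, because it is part of the control mean. The 12 amino acid transporters had a median log2 fold change of -0.22, and -0.05 without that library. Slc7a1, a carrier of arginine and lysine, had 22.6, 21.6 and 21.8 FPKM in PIO libraries and 24.9, 26.4 and 35.4 FPKM in control libraries, with no overlap and a log2 fold change of -0.37 ± 0.11 (SE; limma, adjusted p = 0.325), and -0.22 without that library. Slc38a1, a glutamine carrier, and Slc7a11, the cystine carrier, also had PIO values below all control values, with estimates of -0.15 and -0.76 that were -0.11 and -0.36 without that library. The 20 tested ATF4 response genes had a median of -0.24, with 19 below 0, and -0.03 with 14 below 0 without that library. The estimate for Atf4 was -0.56 ± 0.27 (SE; limma, adjusted p = 0.438), and -0.18 without control replicate 3. Mthfd2 and Psat1, of mitochondrial folate metabolism and serine synthesis, had -0.25 each (limma, adjusted p = 0.340 each), and -0.14 each without it. Asns had -0.20 (limma, adjusted p = 0.464), and -0.06 without it. The 12 genes of amino acid sensing and the eIF2 kinases, which start the integrated stress response, had a median of 0.03, the smallest p being that of Castor1, an arginine sensor listed in the table as Gatsl3, at 0.16 (limma, adjusted p = 0.362).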

How the data were processed

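RNA-seq was analysed in 3 PIO and 3 control libraries. The values deposited by the authors are FPKM per gene. Per the labels' protocols, libraries were made with a stranded mRNA kit from TRIzol-extracted RNA. The submitters' processing notes list BWA 0.7.5a and HISAT2 2.2.1.0, beside Cufflinks, HTSeq, DESeq, SAMtools 1.3.1, FastQC 0.11.5 and Trimmomatic 0.36, without their roles, and give the human build GRCh38. The genes of the table are rat genes, so no coordinates come from these notes. For 15427 of the 15429 genes above 0 (99.99%) the FPKM came out as whole reads (tolerance 0.001 read), which gave the library totals, the reads and the gene lengths.

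The 10410 genes that averaged 0.5 FPKM or more were compared between groups by limma 3.58.1 (R 4.3.3) on log2(FPKM + 0.5), with no covariate, a variance trend and two-sided p-values, adjusted by Benjamini-Hochberg and called under 0.05. This scale understates changes of low genes. Alternatives were pseudocounts of 0.1 and 1, no filter, a minimum mean of 1 FPKM, scaling by median of ratios or to TPM, a robust fit, a fit with no trend, sample weights, a replicate block, limma-voom on recovered reads, a length correction and each library left out. The counts of non-overlapping groups without control replicate 3 were added after the data were seen. The code was tested on simulated data. Tables and figures were made with Python 3.11.15, pandas 2.3.3 and matplotlib 3.10.9.

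The members and all lists were chosen with earlier results of these data known. The rule gave library values for the 3 highest and 3 lowest members by level and the 4 highest and 4 lowest by fold change in each class, for Atf4 and Asns, and for up to 4 genes per companion list by smallest p. Fewer are printed for the companion lists. Aars, Eprs, Farsa, Farsb, Lars, Mars, Sars, Tars and Yars were described after their values were seen, and so was the promoter search. Promoter windows come from RefSeq, assembly GRCr8.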

Additional observations from a re-analysis of the deposited data

How the results depend on the processing

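Under 18 alternatives 0 members were called, the lowest adjusted p of a member being 0.195. Of 630 member estimates 611 kept their direction, and 24 of 35 members never reversed. Genes called over the whole table numbered 1 without the filter, 2 without the variance trend, and 7 with the robust fit and with limma-voom, against 4. The cytosolic median was -0.14 under TPM scaling and -0.075 with sample weights, and -0.138 to -0.029 with 1 library left out, where the mitochondrial median was -0.002 to 0.037. The log2 difference between the classes was 3.51 and 3.37 with pseudocounts of 0.1 and 1, against 3.44. Estimates that changed side of 0 were Hars -0.003 and Rars -0.021 under TPM scaling, Wars 0.001 and Rars2 0.011 with sample weights, and Rars -0.010 and Vars 0.001 with the length correction. With 1 library left out in turn the ranges that crossed 0 were -0.001 to 0.041 for Hars, -0.169 to 0.005 for Sars, -0.123 to 0.011 for Yars, -0.032 to 0.011 for Wars, -0.017 to 0.03 for Rars, -0.039 to 0.002 for Iars2, -0.001 to 0.086 for Lars2, -0.057 to 0.037 for Rars2, -0.065 to 0.107 for Sars2 and -0.148 to 0.064 for Yars2. The cause was not tested. Replicate numbers are shared between groups, but same-numbered libraries deviated together with correlations of -0.068, 0.028 and 0.078, so the numbers were not taken to pair them. With the replicate block 3 genes and 0 members were called, the cytosolic median stayed at -0.106, and it changed no other call of a member. Depth limits Mars2, which had 10 to 26 reads per library.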

Other observations

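Aldh18a1, the first enzyme of proline synthesis from glutamate and 1 of the ATF4 response genes, went against most genes of its list in control replicate 3. It had 6.01, 3.50 and 4.53 FPKM in PIO libraries and 18.5, 15.3 and 8.37 FPKM in control libraries, with no overlap, and control replicate 3 was the lowest control library. Its log2 fold change was -1.45 ± 0.28 (SE; limma, adjusted p = 0.245), the lowest of all genes tested. Without control replicate 3, the control library nearest to the PIO values for this gene, it was -1.77 (limma, adjusted p = 0.0407). That fit called 4 of the 10410 genes tested, and with all 6 libraries Aldh18a1 was not called.

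The threonine-tRNA ligase-like locus LOC108349769 was lowest in control replicate 3. It had 4.45, 3.85 and 5.09 FPKM in PIO libraries and 4.51, 4.04 and 2.11 FPKM in control libraries, while Tars was highest in control replicate 3. The locus had only 17 reads in control replicate 3 and 30 to 39 in each other library, so this contrast is uncertain.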
